A study of Mus musculus with 4 samples.

Results

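The transcripts described here encode 7 enzymes of cholesterol synthesis (Hmgcs1, Idi1, Fdps, Fdft1, Sqle, Lss and Cyp51) and Insig1, a brake on the transcription factors that drive them. They were taken by gene symbol from the deposited tables, and all 8 were found among the 11822 genes listed in both tables. RNA was measured in mature dendritic cells (maDC), which are bone marrow cells of C57BL/6 mice aged 6 weeks grown in GM-CSF (10 ng/ml) plus IL-4 (1 ng/ml), purified with beads against CD11c and exposed to LPS (100 ng/ml) over 24 h. The 2 Mettl3KO libraries came from Mettl3 fl/fl CD11c-Cre mice, in which Cre driven by the CD11c promoter removes exons 2 to 4 of Mettl3, and the 2 Mettl3WT libraries came from Mettl3 fl/fl littermates. Each library stood for 1 mouse, and the study used 2 littermate pairs. The libraries of each deposited table were taken as a pair, here pair 1 and pair 2. As the study names the genotypes, the Cre transgene was carried by the Mettl3KO mice only, so that its own effect and that of Mettl3 loss cannot be told apart.

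Cells build cholesterol from acetyl-CoA through the mevalonate pathway, which yields isoprenoid diphosphates, then squalene, then lanosterol, and finally cholesterol. The genes of this pathway are switched on together by the sterol regulatory element-binding proteins (SREBP), which the escort protein SCAP carries out of the endoplasmic reticulum when membrane cholesterol is low. Insig proteins hold SCAP back when sterols are plentiful, and in activated myeloid cells the pathway is tied to membrane growth and to oxysterol signals. Mettl3 is the catalytic subunit of the enzyme that places N6-methyladenosine on mRNA.

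The libraries held 31245000 to 35560000 reads as far as the steps between low RPKM values show it. RPKM is the number of reads scaled to the length of the transcript and to the size of the library. Mettl3 itself had 4.59 RPKM in Mettl3KO and 5.31 RPKM in Mettl3WT cells of pair 1, and 4.39 RPKM in Mettl3KO and 5.10 RPKM in Mettl3WT cells of pair 2, a gene-level value that cannot show whether its deleted exons were missing. The study itself reports that its RNA-seq showed these exons to be removed, and that Mettl3 mRNA and protein were strongly reduced in Mettl3KO maDC. In pair 1, Xist had 37.8 RPKM in Mettl3KO and 0.0502 RPKM in Mettl3WT cells, and the Y-linked Ddx3y had 0.0243 RPKM in Mettl3KO and 29.1 RPKM in Mettl3WT cells, so sex and genotype cannot be told apart there. None of 5 sex-linked transcripts, both of these among them, is listed in the second table. That table holds only genes above 1 RPKM in both of its libraries. With both mice of pair 2 of the same sex, and levels as in pair 1, Xist or Ddx3y would have been listed. The mice of pair 2 therefore also appear to differ in sex, and sex and genotype cannot be told apart there either. Which of them was female is not shown. The 10 dendritic cell markers were listed in every library with a summed level of 4973 to 6033 RPKM in Mettl3KO and 6759 to 9108 RPKM in Mettl3WT cells. Cd74, Ccr7, Fscn1 and H2-Ab1 made up most of these sums. In Mettl3KO cells 8 of the 10 were lower in pair 1 and 9 in pair 2, against 53.3% and 58.3% of all genes. Itgax, the gene of CD11c, had 9.66 and 51.0 RPKM in Mettl3KO cells of pairs 1 and 2, against 12.6 and 17.2 RPKM in Mettl3WT cells. The Mettl3KO library of pair 2 also stood apart by the mitochondrial rRNA mt-Rnr1, with 4949 RPKM against 1853 RPKM in the Mettl3WT library of that pair. Pair 1 had 1160 RPKM in Mettl3KO and 1219 RPKM in Mettl3WT cells.

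The bases before the transcription start were read for the 5 genes with a RefSeq promoter window (GRCm38.p6, the coordinates of mm10), which were Hmgcs1, Idi1, Lss, Cyp51 and Insig1. Idi1, Hmgcs1 and Insig1 are printed 5′ to 3′ because they carry the pattern described below, as the gene furthest below Mettl3WT in both pairs, an early enzyme with all the motifs searched, and the gene with the highest Mettl3KO level relative to Mettl3WT in pair 2. Each run holds the 250 bases before the start on the + strand, at chr13:8885356-8885605 for Idi1, chr13:119690101-119690350 for Hmgcs1 and chr5:28071162-28071411 for Insig1. Capitals mark TCACNCCAC (the SREBP site), CCAAT (the NF-Y site) and GGGCGG (the Sp1 site), searched on both strands, so that ATTGG and CCGCCC are the last pair read from the other strand. No match overlaps another.
Idi1: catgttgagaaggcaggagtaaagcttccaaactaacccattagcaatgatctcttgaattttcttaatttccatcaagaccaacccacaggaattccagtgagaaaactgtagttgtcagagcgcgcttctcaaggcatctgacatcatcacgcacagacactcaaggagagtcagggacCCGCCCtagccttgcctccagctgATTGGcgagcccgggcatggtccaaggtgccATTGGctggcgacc
Hmgcs1: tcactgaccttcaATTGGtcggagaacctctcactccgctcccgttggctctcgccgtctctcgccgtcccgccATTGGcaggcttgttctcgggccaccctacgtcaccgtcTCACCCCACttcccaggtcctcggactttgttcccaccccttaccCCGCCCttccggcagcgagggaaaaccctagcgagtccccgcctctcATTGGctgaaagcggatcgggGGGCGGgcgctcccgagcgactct
Insig1: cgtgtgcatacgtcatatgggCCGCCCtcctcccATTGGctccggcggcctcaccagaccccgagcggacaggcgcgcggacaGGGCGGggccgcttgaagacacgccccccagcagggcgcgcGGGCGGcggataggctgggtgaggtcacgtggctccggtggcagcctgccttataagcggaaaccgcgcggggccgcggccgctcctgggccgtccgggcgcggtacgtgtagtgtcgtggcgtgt

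Over the whole 300-base windows, which run 50 bases past the start, CCAAT and GGGCGG were each found in 5 of 5 genes, against 37.4% and 35.7% of all 32851 RefSeq promoter windows. TCACNCCAC was found in 1 of 5, as TCACCCCAC between 137 and 129 bases before the start of Hmgcs1, and in 1.24% of all windows. Hmgcs1 had the most matches with 8, of which a CCAAT and a GGGCGG match lay after the start, and Idi1 had 3. A match is a description of letters in this window and not a bound site.

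In pair 1 all 8 transcripts were lower in Mettl3KO than in Mettl3WT cells, at 63.5% to 82.8% of the Mettl3WT level. In pair 2, Idi1 was far lower in Mettl3KO cells at 33.1% of Mettl3WT, Hmgcs1, Fdps, Fdft1 and Lss lay at 90.7% to 95.5%, and Sqle, Cyp51 and Insig1 lay at 106% to 138%. None of the 8 passed the limma test across all 11757 genes tested, in which 0.0255% of genes were called lower and 0.017% higher in Mettl3KO cells at an adjusted p under 0.05. At an unadjusted p under 0.05, 1 of the 8 was lower (Idi1), against 2.62% of all genes. None was higher at that p, against 2.94% of all genes. With 2 pairs most of the error of each gene is drawn from the spread of all genes, and in a bulk culture fewer cells of a type and less RNA per cell cannot be told apart.

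**Figure D1:**
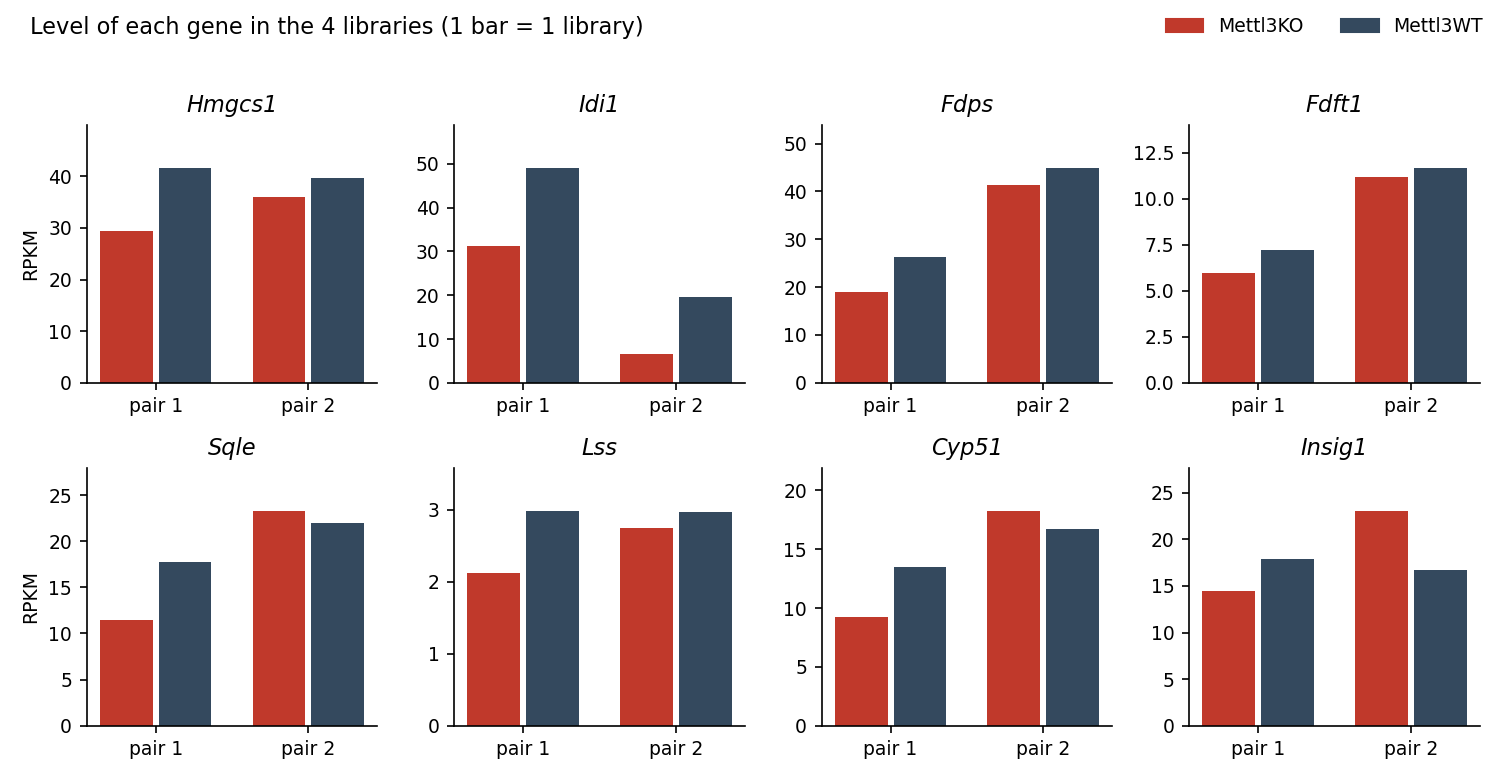
RPKM of each of the 8 transcripts (y axis, own scale from 0 in each panel) in the Mettl3KO and the Mettl3WT library of pair 1 and pair 2, with 1 bar per library and no error bar. All 8 Mettl3KO bars are the lower ones in pair 1, and in pair 2 Sqle, Cyp51 and Insig1 have the higher bar in Mettl3KO cells.

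Hmgcs1 (chr13:119690351-119708260, + strand, mm10) encodes the cytosolic synthase that makes HMG-CoA from acetyl-CoA and acetoacetyl-CoA. It had 29.5 and 35.9 RPKM in Mettl3KO cells of pairs 1 and 2, against 41.7 and 39.6 RPKM in Mettl3WT cells. Both Mettl3KO values lay below both Mettl3WT values, although the tables were normalized separately. The log2 change was -0.31 ± 0.23 (SE, n = 2 pairs, limma adjusted p = 0.994) on the log2(RPKM + 1) scale, on which all log2 values here are given.

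Idi1 (chr13:8885606-8892396, + strand) encodes the isomerase that turns isopentenyl diphosphate into dimethylallyl diphosphate, the starter unit of every longer isoprenoid. It had 31.2 and 6.46 RPKM in Mettl3KO cells of pairs 1 and 2, against 49.1 and 19.5 RPKM in Mettl3WT cells. Each Mettl3KO library was the lower of its pair, but the Mettl3KO value of pair 1 lay above the Mettl3WT value of pair 2, so the groups overlap across pairs. Its level also differed between pairs more than that of any other of the 8, since the Mettl3WT library of pair 2 had 0.398 times the level of pair 1. The log2 change was -1.05 ± 0.25 (SE, n = 2 pairs), with a 95% interval of -1.62 to -0.48 and a limma p of 0.00222 that became 0.282 after adjustment over all genes. By the separate rule of at least 1.5-fold in the same direction in both pairs, Idi1 was the 1 of 8 that was lower, against 0.476% of all genes, and none of the 8 was higher, against 0.731%. With a pseudocount of 5, or with a ratio of 2 in place of 1.5, none of the 8 was lower by that rule. Idi1 is also on the study's own list of lower transcripts, which was drawn from these libraries and is no independent evidence.

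Leaving out the Mettl3KO library of pair 1 moved Idi1 to -2.10 with a limma adjusted p of 0.00690, and leaving out that of pair 2 moved it to 0.0043. These fits have no pair term, set libraries of separately normalized tables against each other, and hold a single Mettl3KO library that is assumed to vary like the 2 Mettl3WT libraries, so that the adjusted p has no replicate check in Mettl3KO cells.

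Fdps (chr3:89093588-89101967, - strand) encodes farnesyl diphosphate synthase, whose product feeds both sterols and the lipid anchors of proteins. It had 19.0 and 41.4 RPKM in Mettl3KO cells, against 26.3 and 45.0 RPKM in Mettl3WT cells of pairs 1 and 2. Both libraries of pair 2 were above both of pair 1, and Mettl3KO was the lower library within each pair. The log2 change was -0.28 ± 0.23 (SE, n = 2 pairs, limma adjusted p = 0.994).

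Fdft1 (chr14:63145150-63181687, - strand) encodes squalene synthase, the first step committed to sterols. It had 5.95 and 11.2 RPKM in Mettl3KO cells, against 7.19 and 11.7 RPKM in Mettl3WT cells of pairs 1 and 2. The difference was the smallest of the 8 in pair 1, with a log2 ratio of -0.24, and it was -0.06 in pair 2. The gene span of Fdft1, introns included, shares 774 bases with that of Ctsb on the opposite strand. Ctsb had 398 and 609 RPKM in Mettl3KO cells against 369 and 542 RPKM in Mettl3WT cells. Whether reads were counted by strand was not stated, so the Fdft1 level is uncertain.

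Sqle (chr15:59315092-59331193, + strand) encodes squalene epoxidase, a rate-limiting enzyme of the sterol branch. It had 11.5 and 23.3 RPKM in Mettl3KO cells, against 17.8 and 21.9 RPKM in Mettl3WT cells of pairs 1 and 2. The Mettl3KO library was the lowest of the 4 in pair 1 and the highest in pair 2. Its log2 ratio was -0.59 in pair 1 and 0.09 in pair 2, and the fitted log2 change was -0.25 ± 0.24 (SE, n = 2 pairs, limma adjusted p = 0.994).

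Lss (chr10:76531565-76557139, + strand) encodes lanosterol synthase, which closes the sterol rings, and was the least abundant of the 8. It had 2.12 and 2.75 RPKM in Mettl3KO cells, against 2.99 and 2.97 RPKM in Mettl3WT cells of pairs 1 and 2. As for Hmgcs1, both Mettl3KO values lay below both Mettl3WT values, and these were the 2 of 8 with that order, against 10.2% of all genes. The log2 change was -0.22 ± 0.20 (SE, n = 2 pairs, limma adjusted p = 0.994). Its gene span, introns included, shares 11269 bases with that of the non-coding 4930483K19Rik on the opposite strand. That gene had 1.10 RPKM in Mettl3KO and 1.16 RPKM in Mettl3WT cells of pair 1. The annotated Lss transcript has 4667 bases, and how much of the overlap is exon was not tested, so any effect on Lss reads is not known. Idi1 shares 218 bases of span with an unnamed gene on the opposite strand, at 0.227 RPKM in Mettl3KO and 0.278 RPKM in Mettl3WT cells of pair 1.

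Cyp51 (chr5:4080674-4104697, - strand) encodes the demethylase that starts the conversion of lanosterol to cholesterol. It had 9.28 and 18.3 RPKM in Mettl3KO cells, against 13.5 and 16.7 RPKM in Mettl3WT cells of pairs 1 and 2. Like Sqle, it was lowest in the Mettl3KO library of pair 1 and highest in that of pair 2. The log2 change was -0.18 ± 0.24 (SE, n = 2 pairs, limma adjusted p = 0.994).

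Insig1 (chr5:28071412-28078662, + strand) encodes the sterol-dependent anchor of SCAP and is itself a target of SREBP. It had 14.4 and 23.1 RPKM in Mettl3KO cells, against 17.9 and 16.7 RPKM in Mettl3WT cells of pairs 1 and 2. The Mettl3WT level was nearly the same in the pairs, while the Mettl3KO library lay below it in pair 1 and above it in pair 2. Its log2 ratio was -0.29 in pair 1 and 0.44 in pair 2, the highest of the 8 in pair 2, and the fitted log2 change was 0.07 ± 0.25 (SE, n = 2 pairs, limma adjusted p = 0.996).

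The reads behind these values, estimated from the library size and the mean length of the annotated transcripts, numbered 335 to 5290 per gene and library in pair 1 and 401 to 4332 in pair 2. The exact 95% counting interval of the Mettl3KO level in percent of Mettl3WT lay below 100 for 8 of 8 genes in pair 1. In pair 2 it lay below 100 for Hmgcs1, Idi1 and Fdps, above 100 for Cyp51 and Insig1, and included 100 for the other 3. For Idi1 it ran from 60.7% to 66.3% in pair 1 and from 30.1% to 36.2% in pair 2, and for Insig1 from 75.0% to 86.6% in pair 1 and from 129% to 148% in pair 2. These intervals cover counting error between 2 libraries only and not the spread between mice, and reads copied by PCR are not independent molecules.

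**Figure D2:**
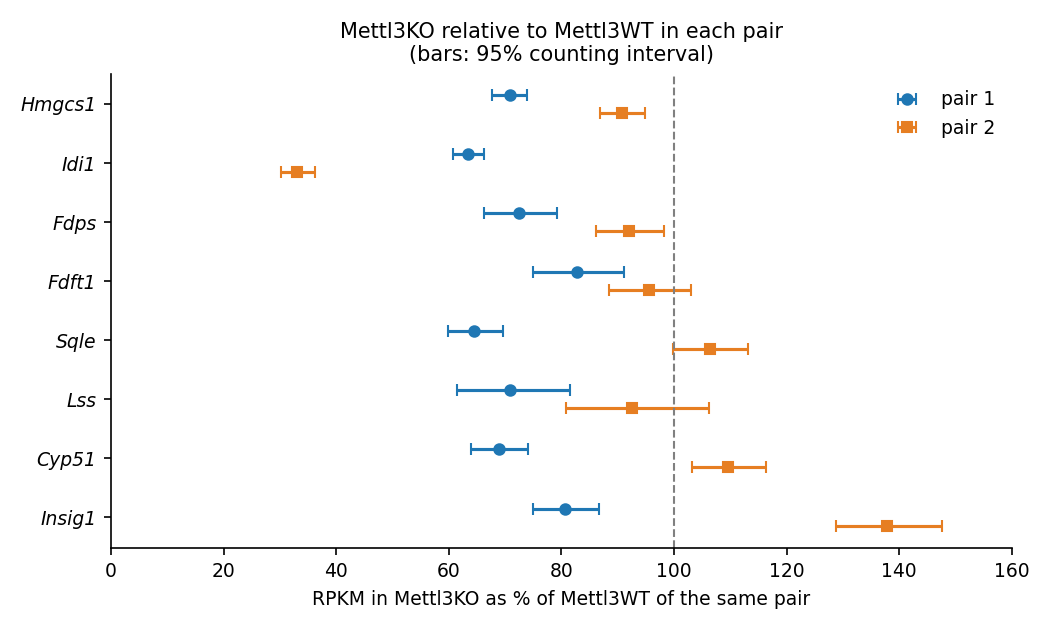
RPKM in Mettl3KO cells as a percent of Mettl3WT cells of the same pair (x axis) for each of the 8 genes, with circles for pair 1, squares for pair 2 and bars for the 95% counting interval. All pair 1 intervals lie left of the dashed line at 100%, and the pair 2 points spread from 33.1% for Idi1 to 138% for Insig1.

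Set against all genes, the 8 lay low in pair 1 and, Idi1 and Insig1 apart, near the middle in pair 2. In pair 1, 8 of 8 were lower in Mettl3KO cells, against 53.3% of all genes, and their median log2 ratio was -0.46 where that of all genes was -0.02. From 1.47% of genes (Idi1) to 13.7% (Fdft1) had a ratio below theirs. In pair 2, 5 of 8 were lower, against 58.3% of all genes, with a median log2 ratio of -0.07 where that of all genes was -0.08. There, 0.791% of genes lay below Idi1 and 89.2% below Insig1, with the other 6 between 43.6% and 70.5%. Hmgcs1, Idi1, Fdps, Fdft1 and Lss made 5 of 8 that were lower in both pairs, against 30.8% of all genes. The log2 ratios of all genes were more widely spread in pair 2, with an SD of 0.49 against 0.29 in pair 1.

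**Figure D3:**
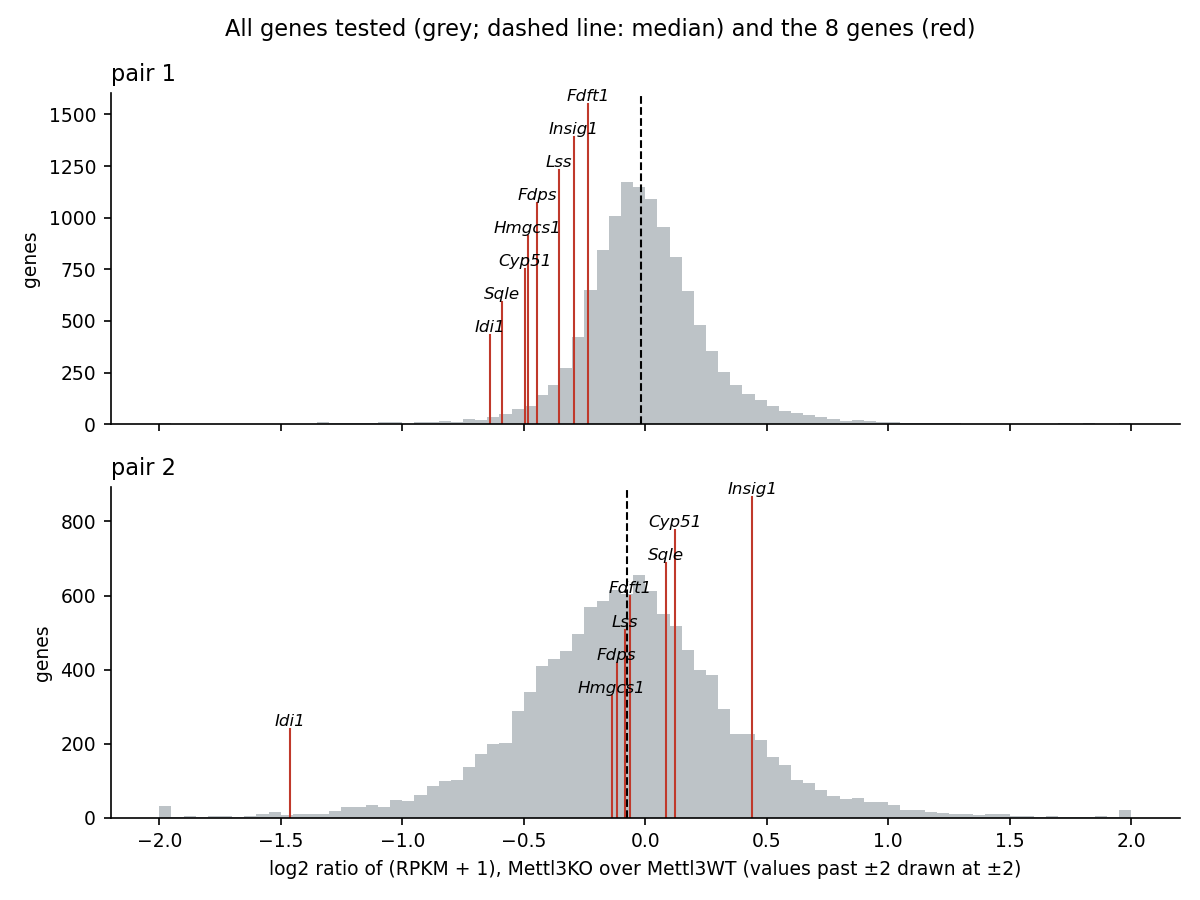
Histogram of the log2 ratio of (RPKM + 1), Mettl3KO over Mettl3WT, of all 11757 genes tested in pair 1 (top) and pair 2 (bottom), with the number of genes on the y axis, the 8 genes as red lines and the median of all genes as a dashed line. The height of a red line only separates the names. The 8 lines lie left of the median in pair 1, and in pair 2 Idi1 lies far left while Insig1 lies right of most genes.

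The granulocyte markers differed in opposite directions in the pairs. In pair 1, 10 of 11 were listed, all 10 higher in Mettl3KO cells, where 53.3% of all genes were lower. Their sum was 5516 RPKM in Mettl3KO and 2383 RPKM in Mettl3WT cells. The 3 also listed in pair 2 (S100a8, S100a9 and Camp) made up 4696 and 2156 RPKM of these sums. In pair 2 all 3 were lower in Mettl3KO cells, against 58.3% of all genes. They summed to 150 RPKM in Mettl3KO and 3031 RPKM in Mettl3WT cells there. S100a9 had 2843 RPKM in Mettl3KO and 1237 RPKM in Mettl3WT cells of pair 1, and 2.57 RPKM in Mettl3KO and 1844 RPKM in Mettl3WT cells of pair 2. The monocyte and macrophage markers, 10 of 11 listed in pair 1 and 9 in pair 2, summed to 899 RPKM in Mettl3KO and 961 RPKM in Mettl3WT cells of pair 1, and to 3476 RPKM in Mettl3KO and 2197 RPKM in Mettl3WT cells of pair 2. The largest terms in pair 1 were Ly6c2, Cd14 and Adgre1. Ly6c2 was higher in Mettl3KO cells there, with 292 RPKM against 241 RPKM in Mettl3WT cells. Cd14 was lower, with 239 RPKM in Mettl3KO and 353 RPKM in Mettl3WT cells, as was Adgre1, with 173 RPKM against 219 RPKM. In all, 7 of the 10 were higher in Mettl3KO cells of pair 1, where 53.3% of all genes were lower. In pair 2 the largest terms were Ly6c2, with 1910 RPKM in Mettl3KO and 1134 RPKM in Mettl3WT cells, and Cd14, with 1047 and 622 RPKM. Mertk, C1qa and C1qb were the 3 of 9 lower in Mettl3KO cells there, against 58.3% of all genes. Of the 9, 4 were higher and 1 was lower in both pairs, against 19.1% and 30.8% of all genes. The chemokine receptor Ccr2 had 3.93 and 9.90 RPKM in Mettl3KO cells of pairs 1 and 2, against 1.57 and 5.45 RPKM in Mettl3WT cells. The Fc receptor Fcgr1 had 57.1 and 33.5 RPKM in Mettl3KO cells against 19.2 and 20.7 RPKM in Mettl3WT cells, and both were at least 1.5-fold higher in both pairs with limma adjusted p = 0.286 (Ccr2) and 0.264 (Fcgr1). The 10 proliferation markers summed to 88.4 RPKM in Mettl3KO and 89.7 RPKM in Mettl3WT cells of pair 1, and to 108 RPKM in Mettl3KO and 133 RPKM in Mettl3WT cells of pair 2. Pcna made up most of these sums. In pair 1, 7 of the 10 were higher in Mettl3KO cells, where 53.3% of all genes were lower. All 10 were lower in pair 2, against 58.3% of all genes. None of these markers was at 0 where listed. Sqle, Cyp51 and Insig1 also differed in direction between the pairs, and the part of these cell markers in the cholesterol genes was not tested.

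The other 14 tested enzymes of the pathway had a median log2 ratio of -0.09 in pair 1 and 0.02 in pair 2, where the medians of all genes were -0.02 and -0.08. In both pairs 5 of 14 were lower and 2 of 14 higher in Mettl3KO cells, against 30.8% and 19.1% of all genes. None passed the limma test, and 1 was lower at an unadjusted p under 0.05, against 2.62% of all genes. Acat2, which makes acetoacetyl-CoA, had 3.92 and 9.88 RPKM in Mettl3KO cells of pairs 1 and 2, against 6.85 and 7.16 RPKM in Mettl3WT cells. Its direction therefore differed between the pairs, as it did for Msmo1, a methyl sterol oxidase that acts after Cyp51, with 24.0 and 64.0 RPKM in Mettl3KO cells against 27.4 and 37.3 RPKM in Mettl3WT cells. The phosphomevalonate kinase Pmvk, which acts upstream of Idi1, had 63.6 and 54.3 RPKM in Mettl3KO cells against 61.1 and 127 RPKM in Mettl3WT cells. The decarboxylase Mvd had 14.2 and 28.4 RPKM in Mettl3KO cells against 15.2 and 33.6 RPKM in Mettl3WT cells, the lower library of each pair being Mettl3KO. The mevalonate kinase Mvk had 6.19 and 10.2 RPKM in Mettl3KO cells against 6.31 and 9.65 RPKM in Mettl3WT cells.

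Among the SREBP machinery and sterol sensors, 10 of 16 tested genes lay below Mettl3WT in both pairs and 1 lay above it, against 30.8% and 19.1% of all genes. The list median was -0.03 for pair 1 and -0.22 for pair 2, where all genes had -0.02 and -0.08, and none passed the limma test or an unadjusted p under 0.05. Srebf2, the SREBP gene most tied to cholesterol synthesis, had 26.5 and 18.4 RPKM in Mettl3KO cells, against 29.5 and 30.2 RPKM in Mettl3WT cells of pairs 1 and 2. Both Mettl3KO values were the lower ones, with a log2 change of -0.42 ± 0.23 (SE, n = 2 pairs, limma adjusted p = 0.991). Srebf1, which also drives fatty acid genes, had 12.5 and 13.6 RPKM in Mettl3KO cells against 12.1 and 14.6 RPKM in Mettl3WT cells. The escort Scap had 7.63 and 7.50 RPKM in Mettl3KO cells against 8.11 and 7.73 RPKM in Mettl3WT cells. Insig2, the paralog of Insig1, had 6.27 and 5.80 RPKM in Mettl3KO cells against 7.06 and 7.35 RPKM in Mettl3WT cells, and so did not have the higher Mettl3KO level that Insig1 had in pair 2. The proteases that release SREBP had 16.7 and 10.7 RPKM (Mbtps1) and 4.78 and 3.90 RPKM (Mbtps2) in Mettl3KO cells, against 17.1 and 13.1 RPKM (Mbtps1) and 4.83 and 3.25 RPKM (Mbtps2) in Mettl3WT cells.

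In the lists around the pathway no gene passed the limma test. The counts below stand against 30.8% of all genes lower and 19.1% higher in both pairs, and against 2.62% lower and 2.94% higher at an unadjusted p under 0.05. Cholesterol uptake and lysosomal release genes had 3 of 15 lower and 5 of 15 higher in both pairs (1 higher at an unadjusted p under 0.05), the isoprenoid branch had 2 of 14 lower and 5 of 14 higher (none), and the oxysterol and ester genes had 2 of 9 lower and 3 of 9 higher (none). Against the same shares of all genes, of the 11 efflux genes and genes of the oxysterol receptor LXR, 1 lay below and 4 lay above Mettl3WT in both pairs (1 higher at an unadjusted p under 0.05). Pltp, a phospholipid transfer protein induced by LXR, had 74.2 and 211 RPKM in Mettl3KO cells against 39.4 and 136 RPKM in Mettl3WT cells, and was at least 1.5-fold higher in both pairs, with a log2 change of 0.76 ± 0.23 (SE, n = 2 pairs, limma adjusted p = 0.505). Of the 16 fatty acid synthesis genes, set against the same shares, 7 were lower and 4 higher in both pairs (3 lower and 1 higher at an unadjusted p under 0.05). Lpin1, a phosphatidate phosphatase on the way to triglycerides, had 2.19 and 1.17 RPKM in Mettl3KO cells against 4.50 and 3.47 RPKM in Mettl3WT cells, with a log2 change of -0.91 ± 0.20 (SE, n = 2 pairs, limma adjusted p = 0.217), and like Idi1 it is on the study's own list of lower transcripts. The members of each list share libraries, so their counts are a description.

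**Figure D4:**
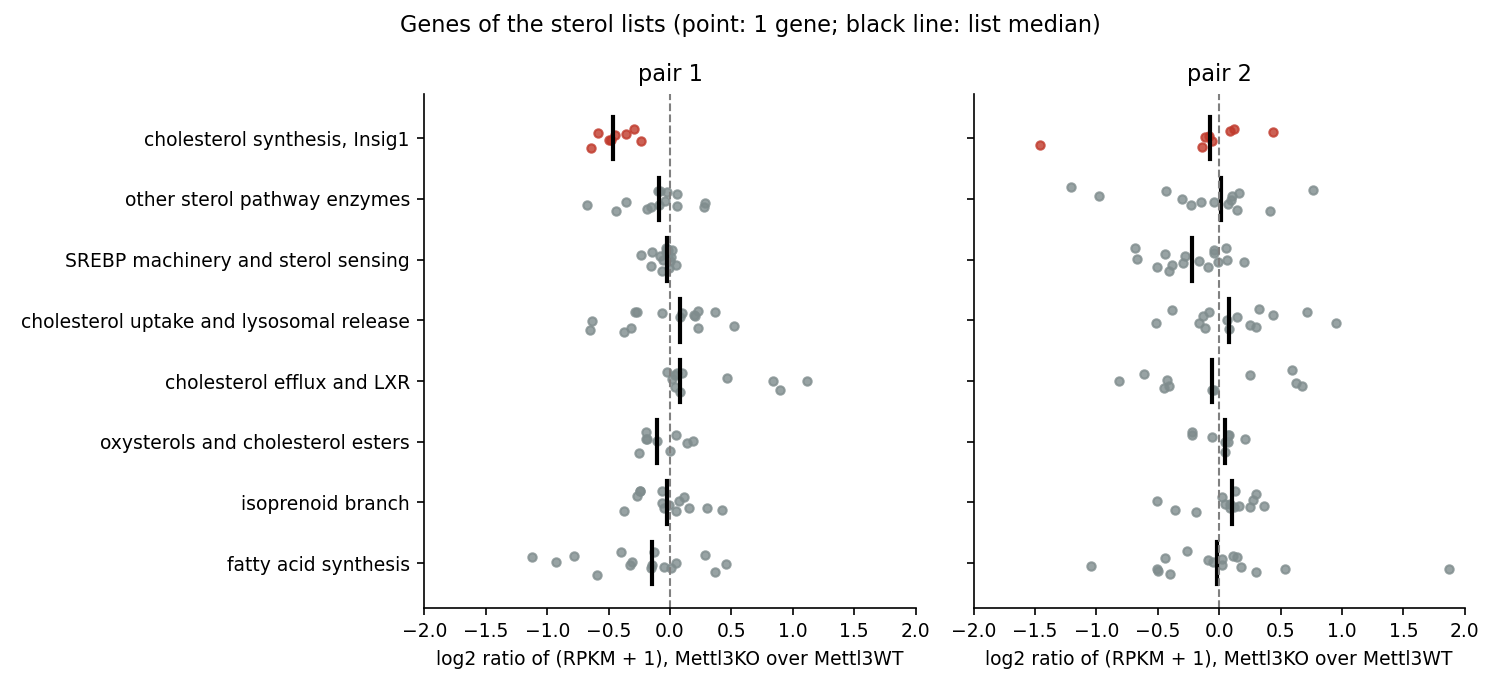
Log2 ratio of (RPKM + 1), Mettl3KO over Mettl3WT (x axis), of every tested gene of the 8 lists in pair 1 (left) and pair 2 (right), with 1 point per gene, a black line at the list median and a dashed line at 0. The 8 genes described here (red, cholesterol synthesis with Insig1 included) all lie below 0 in pair 1 with a median of -0.46, where the other list medians lie between -0.15 and 0.08. The median of the 8 in pair 2 is -0.07.

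The mean pattern of the 8 over the 4 libraries, each gene centred on its own mean, was lowest in the Mettl3KO library of pair 1. Hmgcs1 and Lss lay closest to that mean pattern, each at a distance of 0.111 on the log2 scale, and Idi1 lay furthest at 2.12, with the others between 0.437 and 0.709. In the Mettl3KO library of pair 2 the centred value of Idi1 was -1.58, while the other members ran from -0.02 to 0.40. Idi1 thus lowered the mean pattern in that library. The 5 other genes nearest to this mean pattern were Snx5, Zfyve21, Agpat4, Acot7 and the tRNA gene n-TEttc8, at distances of 0.0201 to 0.0574 over 4 libraries. Snx5 had 54.4 and 69.1 RPKM in Mettl3KO cells of pairs 1 and 2, against 74.6 and 76.6 RPKM in Mettl3WT cells, and no gene of the sterol lists was among these 5.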

How the data were processed

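Polyadenylated RNA of 4 libraries (Mettl3KO and Mettl3WT, 2 littermate pairs) was sequenced. The submitters' processing notes name mm10, bcl2fastq, Cuffnorm and TopHat2 (2.0.14). The authors deposited 1 table of RPKM values per pair. Annotation, strandedness and handling of multiply mapped reads were not stated in the sources used here. The deposited fold change, p-value and q-value columns hold the authors' own comparison and were not used. The first table lists 23690 genes and the second 11835, all above 1 RPKM. The 22 date-like symbols of the first were not turned back into gene symbols, and symbols that were not unique were kept apart by position.

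Values were analysed as log2(RPKM + 1), which understates changes of low genes. Genes in both tables with a mean of at least 1 RPKM (11757) were tested with limma 3.58.1 (R 4.3.3) with the intensity trend and the pair as a block, Benjamini-Hochberg adjustment over all genes and a threshold of 0.05. This left 1 residual degree of freedom per gene, to which limma added 8.68. The study's methods state that littermate pairs were used, but not which library numbers belong to a litter. Libraries with the same number were taken as a pair. After subtracting group means the libraries of a pair correlated across genes (r = 0.697). Libraries that share a separately normalized table could also correlate in this way, so r cannot show that they came from littermates. The script was tested on simulated data.

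Library sizes were recovered from low RPKM values, of which 99.5% to 100% lay within 0.1 reads of a whole number (20% by chance). Counting intervals are exact conditional binomial (Clopper-Pearson, 95%). Tables were read with pandas 2.3.3 and numpy 2.4.6 (Python 3.11.15), and figures drawn with matplotlib 3.10.9.

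The genes and lists were chosen with earlier results of these data known. The genes named were all 8, from each other list those at 1.5-fold in both pairs or past the test plus at most 6 in list order, the 5 nearest patterns, and Mettl3. Results of 2 genes of the lists are not reported here. Alternatives were another pseudocount, low-value filter, scaling, trend or fold, no block, and leaving out each library.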

Additional observations from a re-analysis of the deposited data

How the results depend on the processing

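None of the 8 genes passed the limma test under any alternative but 1: without the Mettl3KO library of pair 1 the count was 1, which was Idi1 (-2.10), and leaving out each library in turn gave 0 to 1. The count over all genes was 5 (2 higher, 3 lower), and it was 0 with no replicate block, that is without the pair term, 1 with a pseudocount of 0.1 or of 5 and with each pair centred on its median, and 0 with upper quartile scaling. It ranged from 1 to 118 when a library was left out, each such fit having 1 group of a single library, being 118 without Mettl3KO of pair 1, 27 without Mettl3KO of pair 2, 3 without Mettl3WT of pair 1 and 1 without Mettl3WT of pair 2. Among protein-coding genes only, an alternative chosen after seeing the data, it was 42, and the adjusted p of Idi1 was 0.0761. Dropping the block changed no call among the 8. Idi1 met the 1.5-fold rule in both pairs, but 0 of the 8 did with a pseudocount of 5 or a ratio of 2.

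The median fitted log2 change of the 8 was -0.24, and without a library it ranged from -0.50 to 0.24, its highest value without Mettl3KO of pair 1. Their median in pair 2 was 0.0046 after centring and 0.025 after upper quartile scaling, against -0.07. The oxysterol list had 0.016 after centring, against -0.03. Without Mettl3KO of pair 1, Fdps was 0.26, Fdft1 0.25, Sqle 0.23, Cyp51 0.27 and Insig1 0.39. Without Mettl3KO of pair 2, Idi1 was 0.0043, Insig1 -0.25, Fdps -0.82, Fdft1 -0.55, Sqle -0.73 and Cyp51 -0.64. Without Mettl3WT of pair 2, Fdps was 0.10 and Fdft1 0.17. Hmgcs1 (13 alternatives) and Lss (12, since it was below the filter of 5 RPKM) kept their direction. The causes of these shifts were not tested. Each of the 8 rested on at least 335 reads per library, and n was 2 pairs.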

Other observations

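A few sterol genes were listed only in the first table, so that they have values in pair 1 alone and were not tested. Idi2, the paralog of Idi1, had 0.671 RPKM in Mettl3KO and 0.639 RPKM in Mettl3WT cells, where Idi1 had 31.2 and 49.1 RPKM. Ch25h, which makes an oxysterol from cholesterol, had 0.850 RPKM in Mettl3KO and 0.519 RPKM in Mettl3WT cells. The ester-forming Soat2 had 0.619 RPKM in Mettl3KO and 0.762 RPKM in Mettl3WT cells, far below its paralog Soat1 with 27.5 RPKM in Mettl3KO and 31.3 RPKM in Mettl3WT cells.

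Tm7sf2, a sterol reductase that acts after Cyp51, is outside the naming rule and was chosen after its values were seen. It had 11.0 and 6.77 RPKM in Mettl3KO cells of pairs 1 and 2, against 14.4 and 14.3 RPKM in Mettl3WT cells (log2 change -0.67 ± 0.24, SE, n = 2 pairs, limma adjusted p = 0.695).

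The pattern of Idi1 over the 4 libraries differed from that of the other 7. Looked for after its values were seen, the genes with the most similar centred pattern were Snord61, an unnamed processed transcript and Vdr, the vitamin D receptor, at distances of 0.321 to 0.372. Vdr had 58.2 and 9.52 RPKM in Mettl3KO cells of pairs 1 and 2, against 65.9 and 27.1 RPKM in Mettl3WT cells.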
